A study of Rattus norvegicus with 8 samples.

Results

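Cadherins and protocadherins were described in rat sciatic nerve by taking every row of the normalized read count table whose gene symbol begins with Pcdh, or is Cdh or Cdhr followed by a number alone, and keeping the rows that reached 10 normalized counts in 2 or more of the 8 libraries. Of 75 matching rows, 67 passed and are the members described here, among 16478 genes that passed the same filter and 32545 gene identifiers in the table. The members were 21 cadherins and cadherin-related genes, 10 non-clustered protocadherins and 36 clustered protocadherins.

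The study sequenced polyadenylated RNA from whole nerve of female Sprague Dawley (Envigo) rats 3 to 6 months of age, with 1 animal per library. The PEG group (n = 3) held peripheral nerve allografts (PNAs) whose cut axons had been joined to host axons by the PEG-fusion protocol, in which polyethylene glycol is applied to closely apposed nerve ends. The negative control group (NC, n = 3) held PNAs that were washed and sutured in the same way but received no polyethylene glycol. Both were taken 14 days after the operation from outbred hosts that were neither tissue matched to the donor nor immune-suppressed, and the unoperated group (Unop, n = 2) held sciatic nerve without any operation.

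Cadherins are transmembrane adhesion proteins that bind across the gap between cells in the presence of calcium. Classical cadherins (types I and II) are held to the actin cytoskeleton by catenins, whereas protocadherins lack the catenin-binding tail and mostly act as homophilic recognition molecules, best known in the nervous system. In peripheral nerve, E-cadherin (Cdh1) joins the layers of a single myelinating Schwann cell, N-cadherin (Cdh2) sits where immature Schwann cells meet axons and one another, Cdh19 marks the Schwann lineage, and VE-cadherin (Cdh5) seals endothelial junctions.

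In PEG-fused PNAs the family stood mostly above NC PNAs, and protocadherins made up most of that difference. Between PEG and NC, 27 of the 67 members were upregulated in PEG and 1, Cdh1, was downregulated (limma on log2(normalized count + 1), adjusted p < 0.05). Of all 16478 genes, 28.9% were called in this comparison, 15.0% upward and 13.9% downward. The median log2 fold change was 0.71 over the members and 0.00 over all genes. The 2 groups did not overlap in 40 members that were higher in PEG and 4 that were lower, beside 25.6% and 23.3% of all genes. With the threshold for a differentially expressed gene (DEG), which adds a log2 fold change beyond 1 in size, 11 members were upregulated and 0 downregulated, beside 4.41% and 7.14% of all genes. At an unadjusted p under 0.05, 43 members differed in either direction, beside 41.4% of all genes.

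Against unoperated nerve the family moved in both directions. In PEG vs. Unop, 15 members were upregulated and 13 downregulated, with 57.7% of all genes called (29.1% upward and 28.6% downward), and the median member change was -0.05. In NC vs. Unop, 10 members were upregulated and 33 downregulated, with 64.5% of all genes called (32.2% upward and 32.3% downward), and the median was -0.70. As DEGs, 11 members were upregulated and 9 downregulated in PEG vs. Unop (16.7% and 15.6% of all genes, 32.3% together), and 9 and 22 in NC vs. Unop (19.6% and 19.0%, 38.6% together). Cdh7, Cdhr3 and Cdh20, which are in these counts, passed the filter through 1 group only, PEG, NC and Unop respectively. Cdh10 and Pcdh10 passed it only through PEG and Unop, Pcdh8 only through PEG and NC, and Cdh4 only through NC and Unop. Such a choice favours lower values in a group that did not reach the minimum. The 3 comparisons share libraries, so their values are set side by side below and are not independent of one another. With 1 animal per library, the p-values measure the spread between animals, and in bulk nerve fewer cells of a type and less RNA per cell cannot be told apart.

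**Figure D1:**
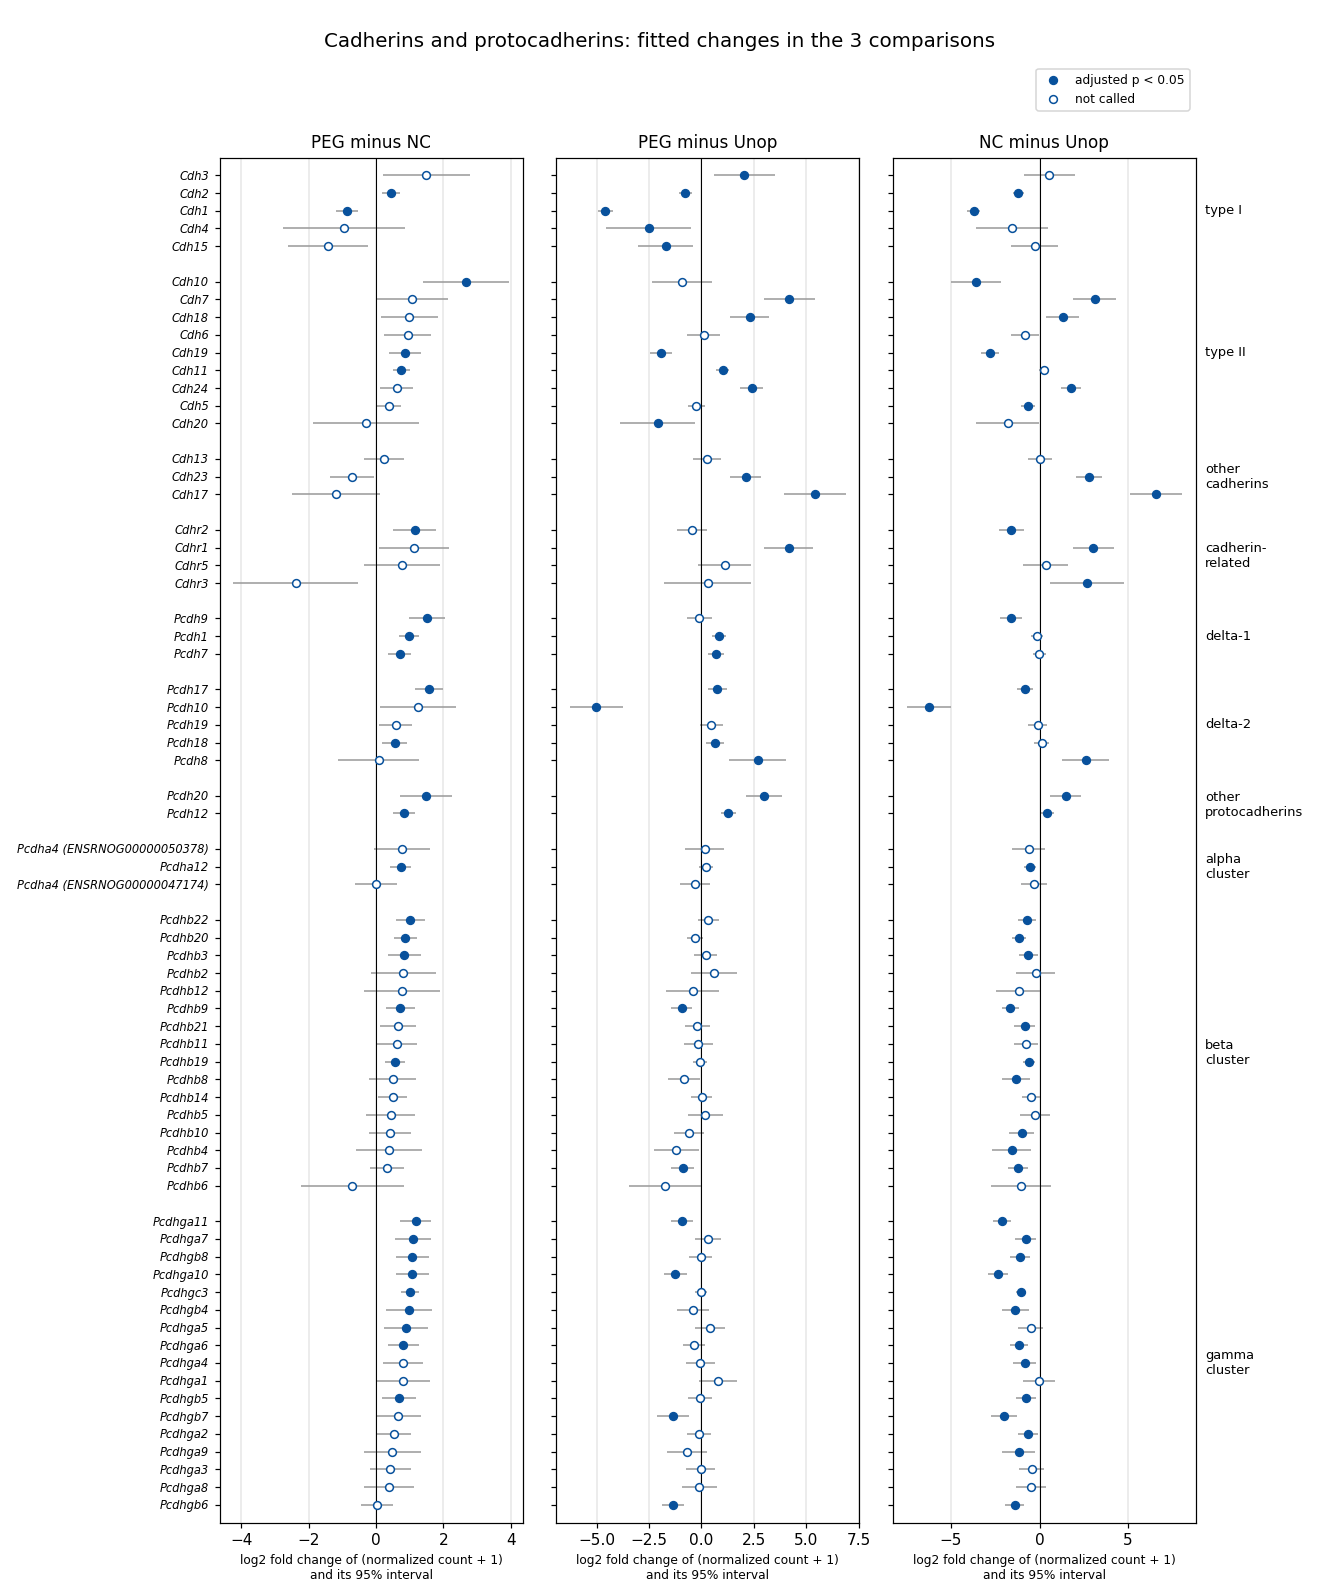
Fitted log2 fold changes of the 67 members (rows, grouped by subfamily) in PEG minus NC, PEG minus Unop and NC minus Unop, on the log2(normalized count + 1) scale with bars for the 95% interval; filled points passed an adjusted p of 0.05 and open points did not. In PEG minus NC 58 points lie above 0, whereas in NC minus Unop all 36 clustered protocadherins lie below 0. Cdh7, Cdhr3 and Cdh20 passed the count filter only through PEG, NC and Unop respectively, so their filled points are not read as tests. Cdh10 and Pcdh10 passed it only through PEG and Unop, Pcdh8 only through PEG and NC, and Cdh4 only through NC and Unop. Their filled points in comparisons with the group left out are not read as tests either.

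Single libraries mattered for part of these counts. Without PEG 2 the number upregulated in PEG vs. NC was 16, and over the other libraries left out in turn it was 18 to 25. Each of 16 of the 27 upregulated members kept its call whichever library was left out, as did Cdh1. The 11 that lost it without at least 1 library were Cdh2, Cdh19, Cdhr2, Pcdh18, Pcdhb3, Pcdhb9, Pcdhb19, Pcdhga5, Pcdhga6, Pcdhgb4 and Pcdhgb5. Without Unop 2, 6 members were upregulated and 21 downregulated in NC vs. Unop.

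Cell type markers also differed between the groups. The study describes thin adhering layers of muscle and connective tissue on NC PNAs, of which the muscle could not be trimmed off completely. Of 8 muscle fibre markers 2 were downregulated in PEG vs. NC, and their summed counts were 779954 in NC 1 and 282924 in NC 3, against 12945 in NC 2, 3111 to 18212 in PEG and 7137 to 42270 in Unop. Without NC 1 and NC 3, a setting chosen after seeing the data that leaves NC with 1 library, 19 members were upregulated and 0 downregulated in PEG vs. NC. Of 10 Schwann cell markers tested, 5 were upregulated in PEG vs. NC and none downregulated, and their sum was 84735 to 92835 in PEG, 31160 to 80514 in NC and 2157269 to 2581229 in Unop. Of 6 leukocyte markers 4 were downregulated in PEG, with sums of 40101 to 45817 in PEG, 57550 to 85290 in NC and 3566 to 4915 in Unop. Of 7 pericyte and smooth muscle markers 5 were upregulated in PEG, with sums of 15806 to 17008 in PEG, 8245 to 12557 in NC and 22221 to 22388 in Unop. Of 7 fibroblast markers 3 were upregulated in PEG, with sums of 274905 to 391260 in PEG, 153962 to 224688 in NC and 251369 to 347126 in Unop. Of 8 endothelial markers tested 1 (Kdr) was downregulated, with overlapping sums of 12089 to 15123 in PEG and 11791 to 14828 in NC, and Cldn5, a defining endothelial gene, was at 0 in all 8 libraries. Perineurial markers (4 tested) summed to 79778 to 92721 in Unop and 4303 to 7337 in the grafts, all 4 downregulated in both grafts, and 1 upregulated in PEG vs. NC. Adipocyte markers (5 tested) summed to 52721 to 94475 in Unop and 3587 to 9144 in the grafts, all 5 downregulated in both grafts, and 3 downregulated in PEG vs. NC. Mitochondrial genes held 13.7% to 16.2% of reads in Unop and 7.12% to 8.68% in the grafts. The part of these cell types and of the mitochondrial share in the members' differences was not tested.

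The type I classical cadherins Cdh1 and Cdh2 were both below unoperated nerve in the grafts, and they parted between PEG and NC. Normalized read counts of Cdh1 (ENSRNOG00000020151) were 295, 319.7 and 297 in PEG, 558, 493 and 606 in NC, and 6112 and 8706 in Unop. No group overlapped another, and PEG was the lowest. Cdh1 was 24.4-fold lower in PEG than in Unop and 13.4-fold lower in NC than in Unop, with log2 fold changes of -4.58 ± 0.16 (SE, adjusted p = 9.16e-07) and -3.73 ± 0.16 (adjusted p = 8.70e-07). It was also lower in PEG than in NC, by -0.85 ± 0.14 (adjusted p = 0.00397). Cdh1 was the only member downregulated in that comparison by limma, where DESeq2 called 4 members and edgeR 2. Without NC 1 and NC 3 the change of Cdh1 was -0.70.

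Cdh2 moved less. Its counts were 678, 846 and 757 in PEG, 494, 582 and 606 in NC, and 1264 and 1307 in Unop. The 3 groups did not overlap, with PEG between the other 2. Cdh2 was upregulated in PEG vs. NC by 0.44 ± 0.12 (adjusted p = 0.0263), a call lost without NC 1, PEG 2 or PEG 3 (adjusted p = 0.0641, 0.0996 and 0.0755) and without NC 1 and NC 3 together (0.134). It was downregulated against Unop in PEG by -0.76 (adjusted p = 0.00136) and in NC by -1.20 (adjusted p = 8.12e-05).

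The other 3 type I members were of low count. Cdh3, P-cadherin of basal epithelia, gave 53.8, 86.9 and 72.2 counts in PEG, 11.6, 24.7 and 47.3 in NC, and 29.0 and 8.76 in Unop. The PEG libraries were above all the others, and the gain over Unop was 2.05 ± 0.63 (adjusted p = 0.0228; 0.184 without Unop 2, 0.0643 without PEG 2 and 0.0558 without PEG 3), while the difference from NC did not pass (1.50 ± 0.57, adjusted p = 0.0818; 0.0427 without NC 3). Of 5 epithelial markers tested, Epcam and Cldn4 were upregulated in PEG vs. NC and none downregulated, with Krt18 alone fitted below 0 (adjusted p = 0.272), and the summed list was 552 to 771 in PEG, 217 to 365 in NC and 280 to 371 in Unop. Against Unop, 3 were upregulated and 1 downregulated in PEG, and 4 and 1 in NC, where Cdh3 did not pass. Their part in the Cdh3 values was not tested.

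Cdh15, M-cadherin of muscle satellite cells and myoblasts, split the NC group. Its counts were 34.3, 35.5 and 32.8 in PEG, 174, 35.5 and 131 in NC, and 119 and 108.8 in Unop. NC 1 and NC 3 were high and NC 2 lay with PEG. Of 7 myogenic precursor markers 4 were downregulated in PEG vs. NC, and the same libraries had their highest summed counts, 6078 in NC 1 and 10800.2 in NC 3, against 386 in NC 2, 107 to 491 in PEG and at most 93.4 in Unop. Their part in the Cdh15 values was not tested. Cdh15 was downregulated in PEG vs. Unop (-1.71 ± 0.58, adjusted p = 0.0324), a call lost when any PEG or Unop library was left out (adjusted p = 0.0643 to 0.131). In PEG vs. NC it did not pass by limma (-1.43 ± 0.52, adjusted p = 0.0709, and 0.00156 without NC 2). It did on recovered reads, by DESeq2 (-1.73, adjusted p = 0.00351) and by edgeR (-1.73, adjusted p = 0.0339). In NC vs. Unop the change was -0.28 with all libraries and -1.65 without NC 1 and NC 3. R-cadherin, Cdh4, had 15.0 and 11.3 counts in Unop, 2.78, 0 and 2.81 in PEG, and 11.6, 3.23 and 0.965 in NC. PEG lay below Unop, with a fitted change of -2.53 ± 0.89. Cdh4 passed the filter only through NC and Unop, a choice that favours lower counts in PEG, so no test of that change is given.

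Among the 9 type II cadherins, Cdh19 was lower in both grafts than in Unop and Cdh11 was highest in PEG-fused PNAs. Cdh19 (ENSRNOG00000029841) had 3577, 3965 and 2933 counts in PEG, 2501, 1925 and 1435 in NC, and 12004 and 14695 in Unop. The 3 groups did not overlap. It was downregulated against Unop in PEG (-1.94 ± 0.23, adjusted p = 0.000158) and in NC (-2.80 ± 0.23, adjusted p = 1.41e-05), and upregulated in PEG vs. NC (0.86 ± 0.20, adjusted p = 0.0154; 0.0624 without PEG 2). Of the 10 Schwann cell markers, 1 was upregulated and 7 downregulated in PEG vs. Unop, and 1 and 9 in NC vs. Unop. Sox10, a transcription factor of the lineage, changed by 0.83 in PEG vs. NC, -0.65 in PEG vs. Unop and -1.48 in NC vs. Unop (adjusted p = 0.00394, 0.00678 and 5.98e-05), whereas Ngfr, a receptor of injured Schwann cells, was upregulated in all 3 comparisons, by 1.45, 4.28 and 2.82 (adjusted p = 0.00135, 1.96e-06 and 7.75e-06).

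Cdh11, a cadherin of mesenchymal cells and fibroblasts, had 5764, 7173 and 5494 counts in PEG, 3678, 3747 and 3452 in NC, and 3259 and 2817 in Unop. Every PEG library was above every other library. It was upregulated in PEG vs. NC by 0.75 ± 0.12 (adjusted p = 0.00271) and in PEG vs. Unop by 1.01 ± 0.13 (adjusted p = 0.00025), while NC vs. Unop did not pass (0.26 ± 0.13, adjusted p = 0.109). Beside its gain in PEG vs. NC, 3 of 7 fibroblast markers were upregulated and 0 downregulated. Among them were Pdgfra (0.31, adjusted p = 0.0195) and Col1a2 (0.98, adjusted p = 0.0200). Against Unop, 4 of the 7 were upregulated and 1 downregulated in PEG, and 1 and 2 in NC. The part of these markers in the Cdh11 values was not tested.

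The largest fitted change of any member between PEG and NC was that of Cdh10, a type II cadherin of the nervous system, at a few counts per library. It had 13.9, 17.8 and 6.57 counts in PEG, 1.79, 0 and 1.93 in NC, and 19.3 and 27.5 in Unop. The NC libraries were near 0 and lay apart from both other groups. Cdh10 passed the filter only through PEG and Unop, a choice that favours lower counts in NC. The fitted changes were 2.67 ± 0.56 in PEG vs. NC and -3.58 ± 0.62 in NC vs. Unop, and no test of them is given. PEG vs. Unop did not pass (-0.91 ± 0.62, adjusted p = 0.243).

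Cdh18 and Cdh24 were higher in both kinds of graft than in unoperated nerve. Cdh7, which neural crest derivatives express, had no read in either Unop library, 9.27, 29.9 and 17.8 counts in PEG, and 7.15, 6.45 and 9.65 in NC, and it passed the count filter only through PEG, a choice that favours a higher value there. Set against a floor of 3 reads in each Unop library, Cdh7 in PEG was at least 5.45-fold higher and in NC at least 2.22-fold higher than in Unop, and PEG and NC overlapped. Cdh24 had 146, 149 and 144 counts in PEG, 89.4, 89.3 and 107 in NC, and 21.5 and 33.8 in Unop. Its groups did not overlap, and it was upregulated by 2.39 ± 0.24 in PEG and 1.78 ± 0.24 in NC against Unop (adjusted p = 6.72e-05 and 0.000262), with 0.62 ± 0.21 between PEG and NC (adjusted p = 0.0636). Cdh18 was upregulated by 2.30 ± 0.41 in PEG and by 1.31 ± 0.41 in NC (adjusted p = 0.00152 and 0.0212), and the second call was lost without NC 1 (0.0562), NC 2 (0.0553), Unop 1 (0.0581) or Unop 2 (0.0939).

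Cdh5, Cdh6 and Cdh20 completed the type II group. Cdh5, the endothelial member, ranged from 4236 to 5674 counts in PEG, 2929 to 4157 in NC and 5602 to 5974 in Unop, and only NC vs. Unop passed (-0.65 ± 0.18, adjusted p = 0.0116; 0.0692 without Unop 1). Of 8 endothelial markers tested, 6 were downregulated in NC vs. Unop and 5 in PEG vs. Unop, where Cdh5 did not pass. Their sums were 20931 to 22798 in Unop, and their part in the Cdh5 values was not tested. Cdh6 passed in no comparison, and its PEG vs. NC difference was 0.94 ± 0.31 (adjusted p = 0.0513; 0.0147 without NC 1). Cdh20 had 18.2 and 15.0 counts in Unop, 7.42, 1.87 and 1.88 in PEG, and 9.83, 1.08 and 4.82 in NC. It passed the filter only through Unop, so its lower counts in the grafts were favoured by that choice and no test of them is given.

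The cadherins outside both classical types included the member with the largest gain over unoperated nerve. Cdh17 (ENSRNOG00000015562), the liver-intestine cadherin, had 307, 129.9 and 256 counts in PEG, 466, 583 and 439.9 in NC, and 10.7 and 1.25 in Unop. Every graft library was at least an order of magnitude above both Unop libraries, and every NC library was above every PEG library. The log2 fold changes were 5.41 ± 0.64 in PEG and 6.59 ± 0.64 in NC against Unop (adjusted p = 0.000165 and 3.82e-05), and -1.18 ± 0.57 in PEG vs. NC, which did not pass (adjusted p = 0.156) but did in DESeq2 on recovered reads (-1.10, adjusted p = 0.00714). The summed leukocyte markers above had the same order of groups. Cd68, a macrophage gene, was not called between PEG and NC (0.36, adjusted p = 0.264). Ptprc, the pan-leukocyte gene Cd45, was upregulated by 3.23 in PEG and 4.71 in NC against Unop (adjusted p = 5.61e-06 and 8.17e-07). The part of leukocytes in the Cdh17 values was not tested.

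Cdh23, a component of the tip links of hair cells, had 101, 77.6 and 86.3 counts in PEG, 107, 179.7 and 155 in NC, and 25.8 and 15.0 in Unop. PEG and NC did not overlap, with NC the higher. Cdh23 was upregulated against Unop in PEG (2.10 ± 0.32, adjusted p = 0.000628) and NC (2.81 ± 0.32, adjusted p = 9.05e-05). PEG vs. NC did not pass by limma (-0.71 ± 0.28, adjusted p = 0.0945) but did in DESeq2 on recovered reads (-0.74, adjusted p = 0.0455). T-cadherin, Cdh13, which is held to the membrane by a lipid anchor, passed in no comparison, with counts of 3469 to 6050.5 in PEG, 2660.4 to 4449 in NC and 3123 to 4028 in Unop.

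**Figure D2:**
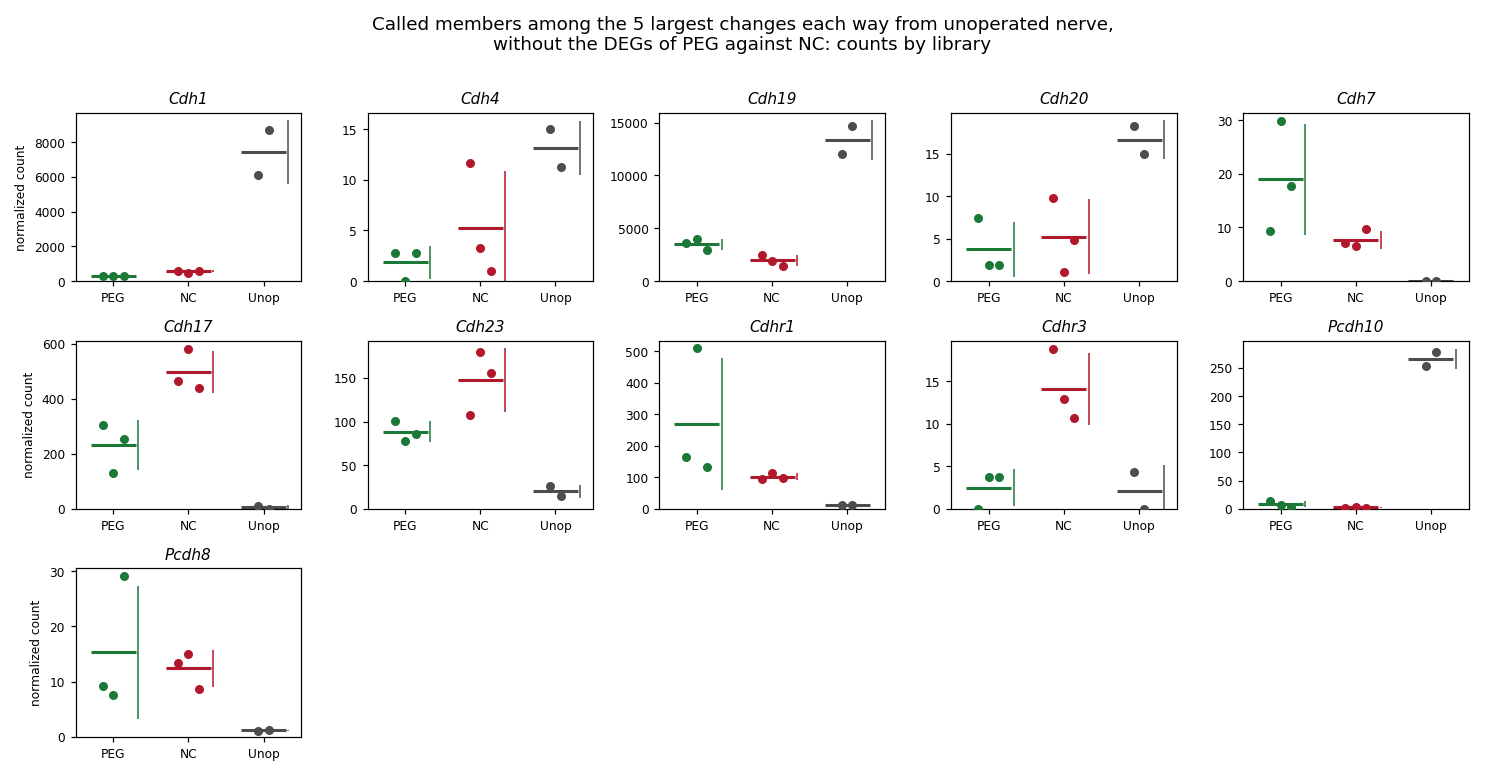
Normalized counts by library (points) of 11 members that were called and among the 5 largest changes each way in PEG or NC against Unop, without those that were DEGs in PEG vs. NC, with horizontal lines at the group mean and vertical lines for ± 1 SD (PEG n = 3, NC n = 3, Unop n = 2); each panel has its own axis from 0. Cdh1, Cdh19 and Pcdh10 are high only in Unop, and Cdh17, Cdh23 and Cdhr1 are low only in Unop. Cdh7, Cdhr3 and Cdh20 passed the count filter only through PEG, NC and Unop respectively. Cdh4 passed it only through NC and Unop, Pcdh8 only through PEG and NC, and Pcdh10 only through PEG and Unop. That choice favours lower values in the groups left out.

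The 4 cadherin-related members followed no common course. Cdhr1, first known from photoreceptors, had 164, 509 and 131 counts in PEG, 93.8, 114 and 97.4 in NC, and 11.8 and 11.3 in Unop. PEG 2 was far above the other PEG libraries, and no group overlapped another. Cdhr1 was upregulated against Unop in PEG (4.16 ± 0.51, adjusted p = 0.000199) and NC (3.03 ± 0.51, adjusted p = 0.000907), and the difference between PEG and NC was 1.12 ± 0.45 (adjusted p = 0.0982) by limma and 1.40 (adjusted p = 0.0148) by DESeq2. PEG 2 was also the highest library for Cdhr5, with 464 counts beside 102 and 149 in the other PEG libraries, 93.6 to 131 in NC and 74.1 to 105 in Unop, and Cdhr5 passed in no comparison.

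Cdhr2, which with Cdhr5 links the microvilli of brush borders, had 299, 454 and 392 counts in PEG, 178, 217 and 124 in NC, and 388 and 668 in Unop. NC lay below both other groups. Cdhr2 was upregulated in PEG vs. NC by 1.15 ± 0.28 (adjusted p = 0.0169), a call lost without PEG 2 (0.0677), PEG 3 (0.0551) or NC 1 and NC 3 together (0.161), and downregulated in NC vs. Unop by -1.59 ± 0.31 (adjusted p = 0.00212). Cdhr3, a receptor of airway epithelium, had 18.8, 12.9 and 10.6 counts in NC and 0 to 4.29 in the other 5 libraries, and passed the filter only through NC, so that choice favoured its higher counts there and no test of them is given.

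Of the 10 non-clustered protocadherins, 7 were upregulated in PEG vs. NC and none downregulated, beside 15.0% and 13.9% of all genes. In PEG vs. Unop 7 were upregulated and 1 was downregulated, beside 29.1% and 28.6% of all genes. In NC vs. Unop 3 were upregulated and 3 downregulated, near the 32.2% and 32.3% of all genes. The delta-1 group (Pcdh1, Pcdh7 and Pcdh9), long-tailed protocadherins that can bind protein phosphatase, was upregulated as a whole in PEG vs. NC. Pcdh9 (ENSRNOG00000038068) had 59.3, 88.8 and 72.2 counts in PEG, 25.0, 28.0 and 22.2 in NC, and 73.0 and 83.8 in Unop. PEG and Unop overlapped, and NC was lower than either. Pcdh9 changed by 1.50 ± 0.23 in PEG vs. NC (adjusted p = 0.00293), by -1.61 ± 0.26 in NC vs. Unop (adjusted p = 0.000768) and by -0.11 ± 0.26 in PEG vs. Unop (adjusted p = 0.742).

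Pcdh1 and Pcdh7 stood highest in PEG. Pcdh1 had 755, 754 and 837 counts in PEG, 448, 333 and 419 in NC, and 416 and 458 in Unop. NC and Unop overlapped, with PEG above both. It was upregulated by 0.98 ± 0.13 in PEG vs. NC and 0.84 ± 0.15 in PEG vs. Unop (adjusted p = 0.00176 and 0.00145). Pcdh7 was upregulated by 0.71 ± 0.15 and 0.69 ± 0.16 in the same comparisons (adjusted p = 0.00962 and 0.00694), the first not called without NC 1 and NC 3 (0.0672), and NC differed from Unop by -0.01 ± 0.16.

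The delta-2 group (Pcdh8, Pcdh10, Pcdh17, Pcdh18 and Pcdh19), which recruits the actin-regulating WAVE complex, held the strongest loss of the family. Pcdh10 (ENSRNOG00000031974) had 253 and 279 counts in Unop, 14.8, 6.54 and 3.75 in PEG, and 1.79, 4.30 and 1.93 in NC. Both Unop libraries were far above all 6 grafts, and PEG and NC overlapped. The log2 fold change in PEG against Unop was -5.01 ± 0.55 (adjusted p = 0.00011). Pcdh10 passed the filter only through PEG and Unop, a choice that favours lower counts in NC. The fitted changes were -6.25 ± 0.55 in NC vs. Unop and 1.24 ± 0.49 in PEG vs. NC, and no test of them is given.

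Pcdh17 was the delta-2 member with the largest difference between PEG and NC. Its counts were 385, 466 and 468 in PEG, 174, 128 and 138 in NC, and 221 and 301 in Unop. The 3 groups did not overlap, with Unop in the middle. Pcdh17 was upregulated by 1.58 ± 0.18 in PEG vs. NC (adjusted p = 0.00102) and by 0.76 ± 0.20 in PEG vs. Unop (adjusted p = 0.0120; 0.0929 without Unop 1), and downregulated by -0.82 ± 0.20 in NC vs. Unop (adjusted p = 0.00719; 0.0612 without Unop 2). Pcdh8 was low, at 7.48 to 29.1 counts in PEG, 8.68 to 15.1 in NC, and 1.07 and 1.25 in Unop. It passed the filter only through PEG and NC, so its higher counts there than in Unop were favoured by that choice. No test of them is given. Pcdh18 was upregulated in PEG vs. NC by 0.55 ± 0.17 (adjusted p = 0.0415) although NC 3 (683) overlapped PEG 3 (680.1), and lost that call without PEG 1, PEG 2, NC 1 or NC 2 (adjusted p = 0.103 to 0.133). Its gain in PEG vs. Unop was 0.67 ± 0.19 (adjusted p = 0.0149; 0.0938 without Unop 2). Pcdh19, in which variants cause an epilepsy, passed in no comparison (PEG vs. NC, 0.58 ± 0.21, adjusted p = 0.0708; 0.0367 without NC 3).

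Pcdh20 and Pcdh12 were upregulated in all 3 comparisons. Pcdh20 (ENSRNOG00000013306) had 1309.7, 2113 and 1036 counts in PEG, 433, 784 and 385 in NC, and 220.0 and 150.1 in Unop. The 3 groups did not overlap, and the order was PEG above NC above Unop. It was upregulated by 1.48 ± 0.33 in PEG vs. NC (adjusted p = 0.0132), 2.96 ± 0.37 in PEG vs. Unop (adjusted p = 0.000242) and 1.48 ± 0.37 in NC vs. Unop (adjusted p = 0.00819; 0.0743 without Unop 2). Without NC 1 and NC 3, which leaves NC 2 as the only NC library, the PEG vs. NC change was 0.86 (adjusted p = 0.178). Pcdh12, a protocadherin of endothelial junctions, had 553, 407 and 441 counts in PEG, 262, 248 and 272 in NC, and 189 and 192.6 in Unop. Its groups followed the same order without overlap, with log2 fold changes of 0.83 ± 0.14, 1.27 ± 0.16 and 0.45 ± 0.16 (adjusted p = 0.00447, 0.000224 and 0.0355), the last lost without NC 1 (0.0655), NC 3 (0.0859), Unop 1 (0.106) or Unop 2 (0.0895).

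**Figure D3:**
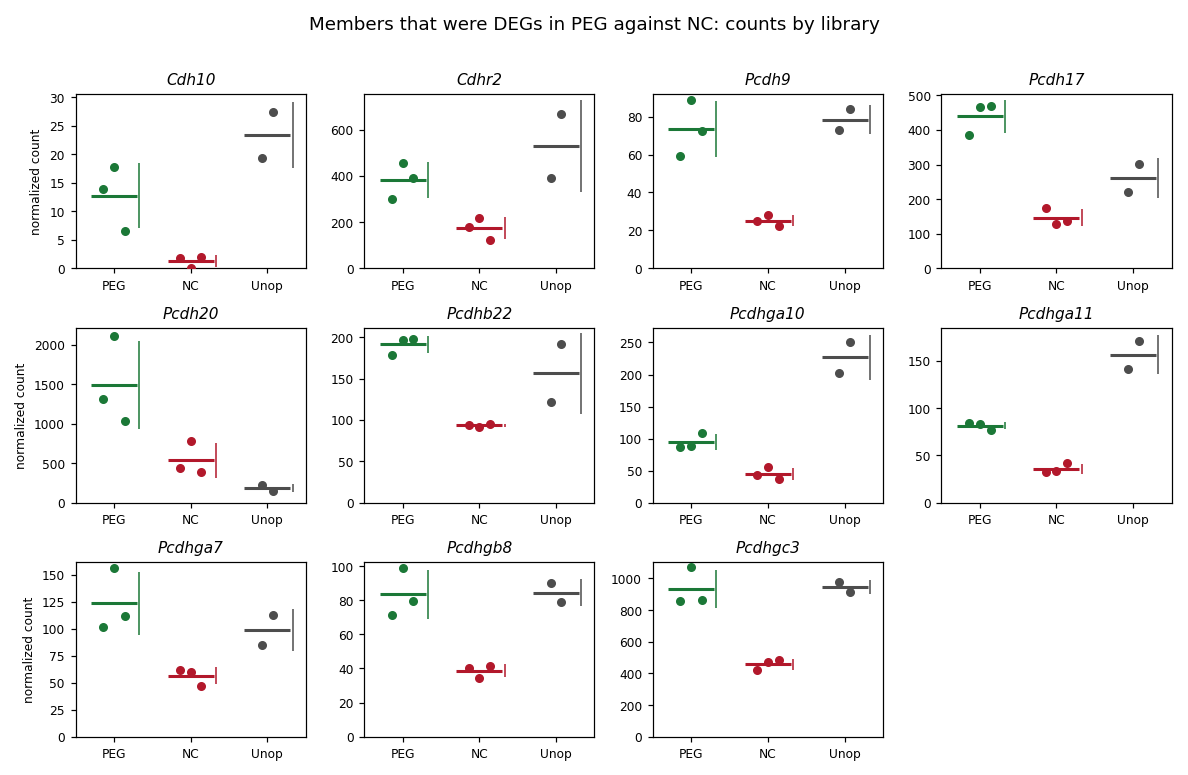
Normalized counts by library (points) of the 11 members that were DEGs between PEG and NC, with horizontal lines at the group mean and vertical lines for ± 1 SD (PEG n = 3, NC n = 3, Unop n = 2); each panel has its own axis from 0. In every panel the 3 PEG libraries lie above the 3 NC libraries, and Pcdh20 and Pcdh17 alone have all PEG libraries above both Unop libraries. Cdh10 passed the count filter only through PEG and Unop, which favours lower counts in NC.

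The clustered protocadherins lie side by side on 1 chromosome in alpha, beta and gamma clusters. Each variable exon has its own promoter, and alpha and gamma transcripts are spliced to constant exons that all members of their cluster share, while beta genes have no constant exon. In neurons each cell expresses its own small choice of them. Counts of single isoforms are uncertain here, because members are near copies of one another and reads on shared exons could be dropped or split in counting, and the strand setting of the counting is not given in the sources used here. Symbol Pcdha4 stood on 2 rows (ENSRNOG00000047174 and ENSRNOG00000050378), which were kept apart.

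As a group, the 36 clustered members were lower in NC PNAs than in unoperated nerve, and fewer of them differed from it in PEG-fused PNAs. In PEG vs. NC 15 were upregulated and 0 downregulated (15.0% and 13.9% of all genes), 34 fitted changes lay above 0, and the median was 0.70. In NC vs. Unop 0 were upregulated and 24 downregulated (32.2% and 32.3% of all genes), all 36 fitted changes lay below 0, and the median was -0.85. In PEG vs. Unop 0 were upregulated and 6 downregulated (29.1% and 28.6% of all genes), with a median of -0.13. At an unadjusted p under 0.05, 9 of the 36 passed in PEG vs. Unop (62.4% of all genes), 19 in PEG vs. NC (41.4%) and 25 in NC vs. Unop (67.9%).

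Summed over all 37 clustered rows, including 1 below the count filter, counts were 4053, 4760.4 and 4114 in PEG, 2749.7, 2349.5 and 2614 in NC, and 4885 and 5103 in Unop. The 3 groups did not overlap, and PEG lay nearer to Unop than to NC. The ratio of means was 1.68 for PEG over NC, 0.863 for PEG over Unop and 0.515 for NC over Unop, and leaving out single libraries moved the first between 1.59 and 1.74. By cluster, the sum for the 17 gamma rows was 1974 ± 170 in PEG (SD, n = 3), 1063 ± 43.0 in NC (n = 3) and 2381 ± 68.5 in Unop (n = 2). The 17 beta rows summed to 1653 ± 147 in PEG, 1065 ± 155 in NC and 1997 ± 33.6 in Unop. The 3 alpha rows summed to 682 ± 76.8 in PEG, 444 ± 69.7 in NC and 616 ± 51.9 in Unop. NC had the lowest sum in all 3 clusters, and in the alpha cluster PEG and Unop overlapped. Single genes weighed heavily in these sums. Pcdha12, with means of 580 in PEG, 350 in NC and 499 in Unop, held most of the alpha sum. In Pcdha4 (ENSRNOG00000047174) the NC mean, 79.0, was above that of PEG, 75.6. Pcdhgc3 had the means 931, 459 and 946 within the gamma sums.

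**Figure D4:**
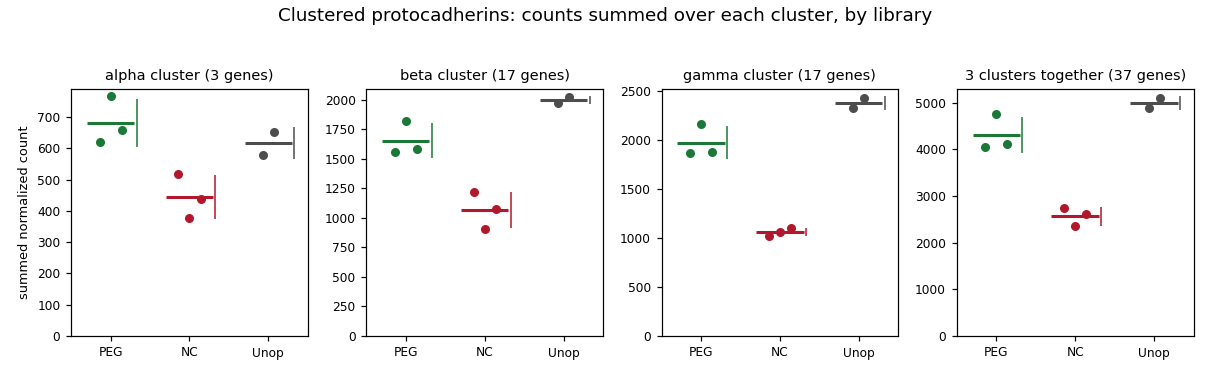
Normalized counts summed over the alpha, beta and gamma protocadherin clusters and over the 3 clusters together, by library (points), with horizontal lines at the group mean and vertical lines for ± 1 SD (PEG n = 3, NC n = 3, Unop n = 2); axes start at 0. NC libraries are the lowest in each panel, at 2349.5 to 2749.7 over the 3 clusters against 4053 to 4760.4 in PEG and 4885 to 5103 in Unop.

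Of the 17 gamma members, 9 were upregulated in PEG vs. NC (15.0% of all genes). Of them 5 were DEGs (4.41% of all genes): Pcdhga7, Pcdhga10, Pcdhga11, Pcdhgb8 and Pcdhgc3. Pcdhgc3, a C-type isoform that many cells express, had 857, 1070.4 and 866 counts in PEG, 420.0, 471 and 485 in NC, and 976 and 916 in Unop. PEG and Unop overlapped and NC was lower than either. The changes were 1.01 ± 0.12 in PEG vs. NC (adjusted p = 0.00104), -1.04 ± 0.13 in NC vs. Unop (adjusted p = 0.000173) and -0.03 ± 0.13 in PEG vs. Unop (adjusted p = 0.863). Pcdhgb8 ran the same way, with 71.4, 99.1 and 79.7 counts in PEG, 40.2, 34.4 and 41.5 in NC, and 90.1 and 78.8 in Unop. Pcdhga7 had 102, 156 and 112 counts in PEG, 61.7, 60.2 and 47.3 in NC, and 84.8 and 113 in Unop. In both, PEG overlapped Unop, and PEG vs. NC gave 1.08 ± 0.21 (adjusted p = 0.00748) for Pcdhgb8 and 1.10 ± 0.24 (adjusted p = 0.0108) for Pcdhga7, the latter not called without NC 1 and NC 3 (1.00, adjusted p = 0.0866).

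Pcdhga10 and Pcdhga11 were intermediate in PEG. Pcdhga10 had 87.1, 88.8 and 108.8 counts in PEG, 42.9, 54.9 and 36.7 in NC, and 202 and 251 in Unop. Pcdhga11 had 84.3, 83.2 and 76.9 in PEG, 32.2, 33.3 and 41.5 in NC, and 142 and 171 in Unop. Neither gene's groups overlapped, and both were downregulated against Unop in PEG (-1.25 ± 0.24 and -0.93 ± 0.22, adjusted p = 0.00255 and 0.00682) as well as in NC (-2.32 ± 0.24 and -2.11 ± 0.22, adjusted p = 6.09e-05 and 6.05e-05). Their PEG vs. NC changes were 1.08 ± 0.22 (adjusted p = 0.00835; 0.0946 without NC 1 and NC 3) and 1.18 ± 0.20 (adjusted p = 0.00397).

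The other gamma members differed from one another. Pcdhgb6 had 40.8, 57.0 and 53.5 counts in PEG, 44.7, 50.6 and 52.1 in NC, and 131 and 130.1 in Unop. PEG and NC overlapped (0.03 ± 0.21, 95% interval -0.45 to 0.50), and both grafts were downregulated against Unop, by -1.37 and -1.39 (adjusted p = 0.00122 and 0.000891). Pcdhgb7 was likewise downregulated in PEG (-1.35 ± 0.33, adjusted p = 0.00748; 0.0569 without Unop 2) and in NC (-2.01 ± 0.33, adjusted p = 0.000773). Pcdhga5, Pcdhga6, Pcdhgb4 and Pcdhgb5 were upregulated in PEG vs. NC, by 0.89, 0.81, 0.98 and 0.68 (adjusted p = 0.0451, 0.0207, 0.0411 and 0.0467), and each lost its call when 1 of several libraries was left out, with adjusted p up to 0.132, 0.0686, 0.139 and 0.151. Pcdhga1 had 31.8 to 61.9 counts in PEG, 18.8 to 33.3 in NC and 23.6 to 32.5 in Unop, and passed in no comparison.

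In the beta cluster 5 of 16 members were upregulated in PEG vs. NC (15.0% of all genes), and 10 were downregulated in NC vs. Unop (32.3%). Pcdhb22, the only DEG of the cluster in PEG vs. NC, had 179, 197 and 198 counts in PEG, 93.8, 91.4 and 95.5 in NC, and 121 and 191 in Unop. PEG and Unop overlapped, and NC was below both. It changed by 1.02 ± 0.19 in PEG vs. NC (adjusted p = 0.00643; 0.0525 without NC 1 and NC 3) and by -0.70 ± 0.22 in NC vs. Unop (adjusted p = 0.0205; 0.140 without Unop 2). Pcdhb20 had 192.8, 243 and 204 counts in PEG, 125, 115 and 107 in NC, and 279 and 248 in Unop, and was upregulated in PEG vs. NC by 0.87 ± 0.15 (adjusted p = 0.00497). Pcdhb3, Pcdhb9 and Pcdhb19 were upregulated by 0.84, 0.71 and 0.55 (adjusted p = 0.0207, 0.0245 and 0.0152), and all 3 calls were lost without PEG 2 (0.0795, 0.0679 and 0.0660) or PEG 3 (0.0744, 0.0678 and 0.0545). Pcdhb9 was also lost without NC 2, NC 3 or PEG 1 (0.0649 to 0.0764), and Pcdhb3 without NC 3 (0.0603).

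Pcdhb9 and Pcdhb7 were the beta members downregulated in PEG vs. Unop, by -0.95 ± 0.21 and -0.89 ± 0.24 (adjusted p = 0.00489 and 0.0130, the second 0.0847 without Unop 1). Pcdhb9 had 229.7 and 219 counts in Unop, 121, 112 and 114 in PEG, and 88.5, 61.3 and 63.7 in NC, with no overlap between groups. Pcdhb6, at 2.78 to 15.0 counts in PEG, 4.30 to 21.4 in NC and 22.5 in both Unop libraries, was the beta member fitted lower in PEG than in NC (-0.71 ± 0.67, adjusted p = 0.459). In the alpha cluster Pcdha12 had 522, 653 and 567 counts in PEG, 391, 315 and 343 in NC, and 473 and 524 in Unop. NC was again apart from both other groups, and Pcdha12 was upregulated in PEG vs. NC by 0.73 ± 0.13 (adjusted p = 0.0053) and downregulated in NC vs. Unop by -0.51 ± 0.15 (adjusted p = 0.0141; 0.0790 without Unop 2). Neither Pcdha4 row passed in any comparison.

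The sequence before the transcription start is shown for 4 beta genes called in PEG vs. NC and for the 5 gamma DEGs. Pcdhb22, the only beta DEG in PEG vs. NC, had no matching RefSeq promoter and is not shown. Promoters of clustered protocadherins are known for a conserved element with the core CGCT, bound by the insulator protein CTCF. RefSeq promoters (build GRCr8) matched 49 of the 66 member symbols, including 14 beta and 12 gamma genes, and the 250 bases upstream of the start were searched on both strands for 2 words picked after reading these sequences, TGGCGCT and GCCGCT, which both end in CGCT and of which neither contains the other. All 14 beta promoters held TGGCGCT, against 2.57% of all 33469 promoters and 0 of the 12 gamma promoters. GCCGCT was held by 8 of the 12 gamma promoters, against 11.7% of all promoters and 0 of the 14 beta promoters. The first base of the word lay 44 to 227 bases upstream of the start in the beta genes and 25 to 166 in the gamma genes. The beta genes are shown first, 60 bases each on the plus strand with the word in capitals.
Pcdhb3, chr18:29285589-29285648: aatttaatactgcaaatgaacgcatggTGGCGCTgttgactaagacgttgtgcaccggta
Pcdhb9, chr18:29379233-29379292: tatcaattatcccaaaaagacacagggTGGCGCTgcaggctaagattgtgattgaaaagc
Pcdhb19, chr18:29478749-29478808: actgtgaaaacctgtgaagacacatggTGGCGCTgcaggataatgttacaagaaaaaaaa
Pcdhb20, chr18:29485795-29485854: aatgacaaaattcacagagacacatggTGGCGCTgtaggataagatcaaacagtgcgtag

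The 5 gamma genes that were DEGs in PEG vs. NC carry the other word, in capitals, in these 60 bases of the plus strand.
Pcdhga7, chr18:29794191-29794250: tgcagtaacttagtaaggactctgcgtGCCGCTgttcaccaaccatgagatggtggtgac
Pcdhga10, chr18:29825800-29825859: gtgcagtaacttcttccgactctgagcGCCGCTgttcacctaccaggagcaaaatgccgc
Pcdhga11, chr18:29834460-29834519: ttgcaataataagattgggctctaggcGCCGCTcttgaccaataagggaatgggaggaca
Pcdhgb8, chr18:29839482-29839541: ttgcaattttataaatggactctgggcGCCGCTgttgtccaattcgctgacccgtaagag
Pcdhgc3, chr18:29884052-29884111: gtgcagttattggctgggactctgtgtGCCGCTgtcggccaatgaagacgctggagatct

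The words were present in members that differed in response: Pcdhb7 and Pcdhb10, for example, held TGGCGCT and were not called in PEG vs. NC. Pcdhga3, Pcdhga8 and Pcdhga9 held GCCGCT and were not called either, while Pcdhga5 was called and lacked the word. A match describes these letters only and does not show a binding site in use. Of 10 genes known to regulate the clusters, 1, the repressor Smchd1, was downregulated in PEG vs. NC (-0.33, adjusted p = 0.0453), and Ctcf, named here because it binds the element, did not pass (-0.23, adjusted p = 0.133), with 1589.6 to 1797 counts in PEG, 1905 to 2178 in NC and 1940.4 to 2366 in Unop.

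Genes that work with cadherins were described from lists, and in several the PEG vs. NC differences ran upward too. Of 14 catenins and junction linkers tested, 8 were upregulated in PEG and 0 downregulated, with a median of 0.59. They included beta-catenin (Ctnnb1, 0.65, adjusted p = 0.00146), alpha-catenin (Ctnna1, 0.53, adjusted p = 0.00497) and plakoglobin (Jup, 0.66, adjusted p = 0.00791). Against Unop, 2 of the 14 were upregulated in PEG (Ctnnb1, 0.43, and Pkp1, 2.61) and 2 in NC (Pkp1, 1.67, and Pkp3, 1.85), while 9 were downregulated in PEG and 10 in NC, among them the p120-related Arvcf, at -3.77 in NC. Of 8 transcription factors known to repress Cdh1, 4 were upregulated in PEG vs. NC and none downregulated: Snai1 by 0.82, Snai2 by 0.93, Zeb1 by 0.54 and Twist1 by 0.90 (adjusted p = 0.0426, 0.00316, 0.0221 and 0.0163). In PEG vs. Unop they parted, with Snai2 and Snai1 upregulated by 1.63 and 1.19 (adjusted p = 7.18e-05 and 0.00707) and Zeb1 and Twist1 downregulated by -0.48 and -0.65 (adjusted p = 0.0293 and 0.0454).

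Of 11 atypical cadherins tested, 5 were upregulated in PEG vs. NC and 2 downregulated. Dchs1 and Fat3, giant cadherins of planar polarity, led the first set at 1.63 and 1.50 (adjusted p = 0.000443 and 0.0111), with Celsr2, Fat4 and Clstn1 at 0.96, 0.76 and 0.59 (adjusted p = 0.00701, 0.0332 and 0.00593). Ret, a receptor tyrosine kinase with cadherin repeats, and the calsyntenin Clstn3 were downregulated by -1.52 and -1.38 (adjusted p = 0.00373 and 0.0335). Of 6 desmosomal genes tested, 0 were called in PEG vs. NC, also at an unadjusted p under 0.05, whereas against Unop 4 were upregulated in PEG and 5 in NC, and 1, desmoplakin (Dsp), was downregulated in both, by -2.78 and -3.64 (adjusted p = 0.00106 and 0.000179). Among 7 enzymes that shed or cleave cadherins, 2 gamma-secretase components were downregulated in PEG vs. NC, Psen2 by -1.48 (adjusted p = 0.000595) and Aph1a by -0.28 (adjusted p = 0.0453).

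The 8 matching rows below the count filter were Cdh8, Cdh9, Cdh12, Cdh16, Cdh22, Cdh26, Pcdh15 and Pcdhb1. Cdh12 had no read in any library, and among the others Cdh16 reached 8.94 counts in NC 1 and Cdh26 8.76 counts in Unop 2, just outside the minimum of 10. Cdhr3, just inside it, reached 10.6 in NC 3. The 8 libraries held 32472925 to 39959620 reads on genes, and a count of 0 in a library allows up to 3 reads, counting error only.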

How the data were processed

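Bulk RNA from 8 rat sciatic nerves was sequenced by the authors as stranded polyadenylated libraries in 75 bp read pairs. Per the labels and the study's methods, FastQC was used for quality control, TopHat2 for alignment to Rnor 6.0 and HTSeq for counting, and counts were divided by DESeq2 median-of-ratios size factors; versions and the strand setting are not given in the sources used here. What was deposited is a normalized count, a signal scaled per library by the authors. All values were whole reads once divided by the step of 1 read (tolerance 0.001), which gave 32472925 to 39959620 reads per library. Groups were taken from the sample labels.

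The 16478 genes that reached 10 normalized counts in 2 or more libraries were tested with limma 3.58.1 in R 4.3.3 (trend) on log2(normalized count + 1), with all 8 libraries and 1 mean per group, and p-values were adjusted by Benjamini-Hochberg over all tested genes. Fold changes on this scale understate those of low genes. On simulated counts with 200 genes changed 4-fold, limma recovered 174 in PEG vs. NC, with 7 false calls. It recovered 168 with 12 false calls in PEG vs. Unop, and 167 with 13 in NC vs. Unop. Most member changes in PEG vs. NC were smaller (median log2 fold change 0.71), so this recovery does not apply to them. Alternatives were DESeq2 1.42.0 and edgeR 4.0.16 on recovered reads, TMM rescaling, other filters (none, or 50 counts), a pseudocount of 8, a robust fit, a fit to only the 2 groups compared, a replicate block, a fold threshold and each library left out. Any member could be named. Values per library were set for DEGs of PEG vs. NC and the 5 largest changes in each direction of the other comparisons, those of further members were added after their values were seen, and list genes were named where called in PEG vs. NC or as cell type markers; Ctcf, Dsp and Pkp3 were named after their values were seen. The members and lists were chosen with earlier results of these data known. Gene positions were not used here. RefSeq promoters (GRCr8) gave the sequences.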

Additional observations from a re-analysis of the deposited data

How the results depend on the processing

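Between PEG and NC, the number of upregulated members was 11 with the fold change threshold and 16 to 25 with 1 library left out, lowest without PEG 2. The number downregulated was 0 with the fold change threshold, 4 by DESeq2, 2 by edgeR, 3 with a pseudocount of 8, 3 with only the 2 groups compared and 1 to 2 with 1 library left out. Without NC 1 and NC 3, a setting chosen after seeing the data, it was 0. In NC vs. Unop, leaving out 1 library gave 6 to 8 upregulated and 21 to 35 downregulated members, lowest without Unop 2. No result changed direction while called. Other counts stayed within 1.5 times the reported ones; the cause of these shifts was not tested. With the replicate number as a replicate block, 23 members were upregulated and 1 downregulated in PEG vs. NC, 14 and 12 in PEG vs. Unop, and 8 and 27 in NC vs. Unop. Deviations from the group means of same-numbered PEG and NC libraries correlated at 0.108, 0.109 and -0.0502. Those of differently numbered PEG and NC libraries correlated at -0.159 to 0.0976. Same-numbered libraries of either graft group and Unop correlated at 0.136 to 0.157. With so few libraries per group these values cannot show whether the numbers pair the samples.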
